A study of Oryctolagus cuniculus with 3 samples.

Results

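The genes described here are 9 markers of smooth muscle and contractile cells: ACTA2, MYH11, TAGLN, CNN1, LMOD1, DES, PDGFRB, TTN and CKM. They were chosen by symbol, and 8 of the 9 were matched by exact name in a gene table of 39681 rows, of which 20008 were coding. CNN1, the smooth muscle calponin gene, is not analysed here. Rabbits (Oryctolagus cuniculus, female, 35 days old at the start) were kept under different ammonia concentrations for 4 weeks, and RNA of the cumulus-oocyte complex was sequenced after depletion of ribosomal RNA. Gene-level values came from the library labelled LAC (NH3 at 10 ppm) and the library labelled CG (the control, NH3 under 3 ppm). A library labelled HAC (30 ppm) entered only with its long non-coding transcripts, because the gene table in its file repeated that of LAC in all 39681 rows. The labels speak of 150 rabbits in all but not of the number behind each library.

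Each group had 1 library, so no test between groups was possible and no difference below has a replicate check. All intervals are 95% intervals of counting error. The estimated counts summed to 68523767 in LAC and 78461882 in CG, where a count stands for about 0.5 reads. Coding genes with at least 10 counts in the higher library held 65.8% of the counts in LAC and 75.4% in CG. The share of spliced reads was also lower in the mapping statistics of the LAC file than in those of the CG file. The libraries thus differed in make-up, and the part of this in the differences below was not tested. The label of the shared gene table is uncertain, since its highest FPKM value equals the one that the statistics of the HAC file give. Those statistics, however, give 72520954 valid reads, the number that the mapping part gives for LAC. The statistics of the LAC file give 72141648, the number that the mapping part gives for HAC. Which of these parts is labelled correctly is not known. At 100% of 8638 loci with a single long non-coding transcript the counts of the gene table follow the coverage in the LAC column of the transcript table. The gene table and that column thus carry the same label. Every direction given for LAC rests on that label. Counts were scaled by TMM and library size to CPM (a count relative to the library's total) and compared as the difference of log2(CPM + 1), LAC minus CG, a scale on which the change of low genes is understated. A gene was past the size rule when this difference was at least 1 in either direction, with 10 or more counts in the higher library. Fold values are CPM ratios without a pseudocount.

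Smooth muscle cells contract when myosin filaments pull on actin filaments. Their alpha-actin (ACTA2) and myosin heavy chain (MYH11) form the filaments, transgelin, calponin and leiomodin bind or build the thin filament, and desmin links the contractile units to each other. Serum response factor and its partner myocardin drive many of these genes. In the ovary, smooth muscle-like cells surround the theca and the blood vessels, and pericytes of small vessels carry the PDGF receptor beta. Titin and the muscle creatine kinase belong to striated muscle. The cumulus-oocyte complex itself consists of the oocyte and its cumulus cells, and no vessel or muscle is a regular part of it.

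The 8 genes did not move as 1 group. TTN, DES, PDGFRB and LMOD1 were past the size rule upwards in LAC, between 2.58-fold and 4.90-fold higher. CKM was past it downwards, 3.50-fold lower. MYH11, ACTA2 and TAGLN did not pass, with MYH11 lower and ACTA2 and TAGLN higher in LAC. These are 4 of 8 genes past the rule upwards and 1 of 8 downwards, beside 1.89% and 11.0% of the 15009 coding genes with enough counts. Their median difference was 1.01, beside -0.14 over those coding genes. All 8 had at least 10 counts in the higher library. The markers were selected with earlier results of these data known, so their share past the rule is a description of these libraries.

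**Figure D1:**
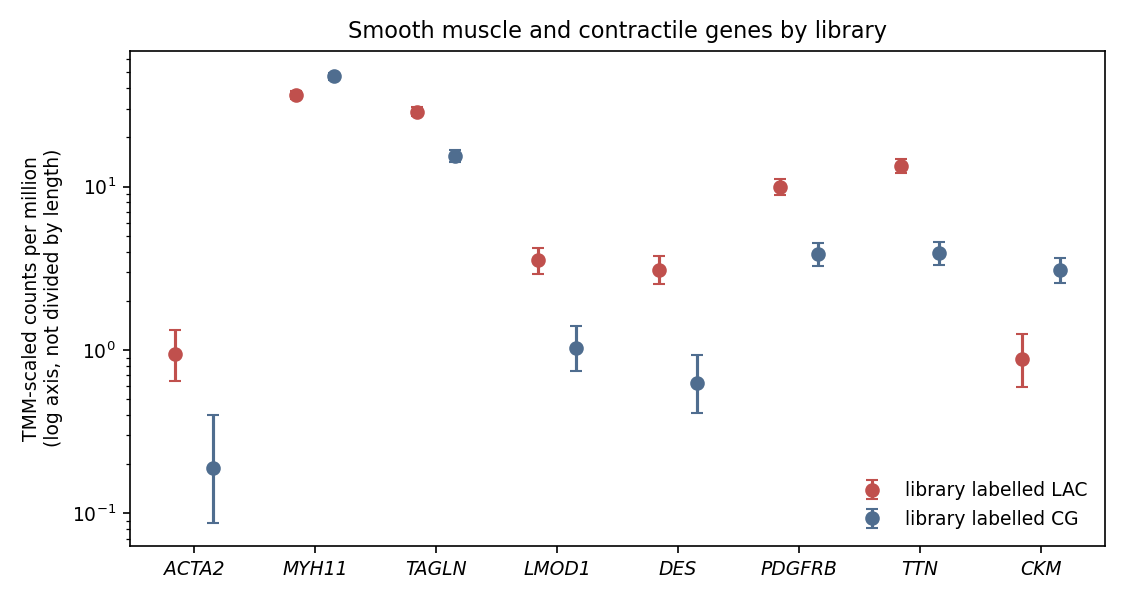
TMM-scaled CPM (log axis, not divided by transcript length) of each gene in the library labelled LAC and the library labelled CG, 1 library each, with bars for the 95% counting interval. LMOD1, DES, PDGFRB, TTN and TAGLN lie higher in LAC, as does ACTA2 at 64 and 15 counts, while MYH11 and CKM lie lower in LAC.

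The main contractile filaments went in opposite directions. MYH11, the smooth muscle myosin heavy chain (OryCun2.0, sequence NC_013674.1, 11019065 to 11130977, plus strand), had 2462 counts or 36.3 CPM in LAC and 3740 counts or 47.2 CPM in CG. It was thus 1.30-fold lower in LAC (1.21 to 1.40), a difference of -0.37. ACTA2, the smooth muscle alpha-actin gene (NC_013686.1, 36853676 to 36870691, minus strand), had 64 counts or 0.94 CPM in LAC and 15 counts or 0.19 CPM in CG. Both libraries held few reads of this defining marker. The CPM ratio was 4.97 (2.11 to 11.7), and the difference of 0.71 did not pass the size rule because both levels lay under the pseudocount. Without a pseudocount, at a CPM ratio of at least 2, ACTA2 passes: 5 of the 8 genes are then higher and 1 lower, beside 7.29% and 19.6% of coding genes.

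ACTA2 has close relatives with a similar coding sequence, which was not compared here. Multi-mapped reads were 27.0% of all valid ones in the mapping statistics of the LAC file and 25.4% in those of the CG file. No source used here says how such reads were shared between the actins. ACTG2, the enteric smooth muscle gamma-actin, had 291 CPM in LAC and 333 CPM in CG. ACTA1 and ACTC1, the skeletal and cardiac alpha-actins, had 0 counts in both libraries. ACTB, the cytoplasmic beta-actin, had 1578 CPM in LAC and 1501 CPM in CG. The value of ACTA2 is uncertain for this reason.

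TAGLN and LMOD1, which act on the thin filament, both had higher levels in LAC. TAGLN, which encodes the actin-binding protein transgelin (NC_013669.1, 99217021 to 99221429, minus strand), had 1947 counts or 28.7 CPM in LAC and 1222 counts or 15.4 CPM in CG. It was 1.86-fold higher (1.68 to 2.06), and its difference of 0.85 lay just under the size rule. LMOD1, the smooth muscle leiomodin that starts new actin filaments (NC_013684.1, 69653675 to 69691985, plus strand), had 241 counts or 3.55 CPM in LAC and 82 counts or 1.04 CPM in CG. Its ratio was 3.43 (2.38 to 4.99) and its difference 1.16, just past the rule, with a counting interval of 0.84 to 1.45 that spans the threshold. TAGLN passed the rule, at 1.02, when the scaling factors came from coding genes alone.

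DES, which encodes the muscle intermediate filament protein desmin (NC_013675.1, 160621544 to 160627374, plus strand), had 210 counts or 3.09 CPM in LAC and 50 counts or 0.63 CPM in CG. The gene was 4.90-fold higher in LAC (3.14 to 7.91), a difference of 1.33. PDGFRB, the receptor through which PDGF recruits pericytes to vessels (NC_013671.1, 31893997 to 31929290, minus strand), had 676 counts or 9.96 CPM in LAC and 306 counts or 3.87 CPM in CG. Its ratio was 2.58 (2.12 to 3.14) and its difference 1.17, with a counting interval of 0.94 to 1.40. Counting error alone thus leaves DES past the rule, at 1.01 to 1.61, but spans the threshold for PDGFRB.

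Both markers of striated muscle were past the rule, in opposite directions. TTN, the giant sarcomere spring titin (NC_013675.1, 118224472 to 118496298, minus strand), had 907 counts or 13.4 CPM in LAC and 309 counts or 3.90 CPM in CG, a ratio of 3.42 (2.86 to 4.15) and a difference of 1.55. A further coding row, LOC108176866, described in the files as muscle M-line assembly protein unc-89-like, lies inside the titin gene on the same strand. It had 23 counts in LAC and 4 in CG, so the split of reads between both rows is a small uncertainty. CKM, the muscle creatine kinase (NW_003159633.1, 25315 to 33102, minus strand), had 60 counts or 0.88 CPM in LAC and 245 counts or 3.09 CPM in CG. It was 3.50-fold lower in LAC (2.32 to 5.39). Its difference of -1.12 had a counting interval of -1.42 to -0.79, which spans the threshold.

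**Figure D2:**
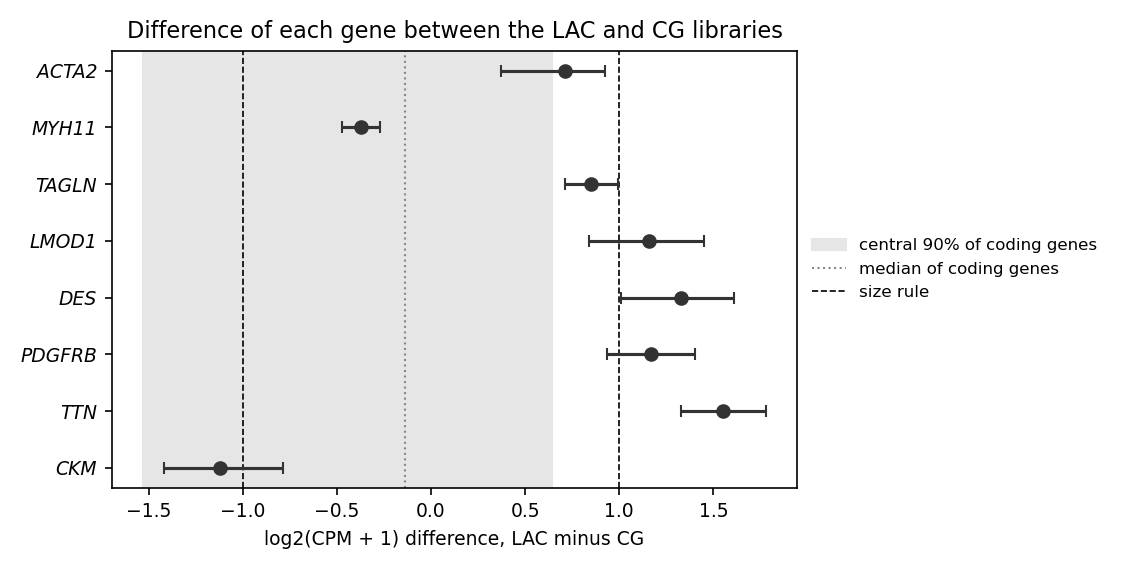
Difference of log2(CPM + 1), LAC minus CG, for each gene (points) with its 95% counting interval (bars), over the central 90% of 15009 coding genes (grey, -1.53 to 0.64) and their median of -0.14. ACTA2, TAGLN, LMOD1, DES, PDGFRB and TTN lie above the grey range, while MYH11 and CKM lie inside it.

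A ratio of counts within 1 library does not depend on the scaling between libraries. Per 100 counts of MYH11 there were 8.53 counts of DES in LAC and 1.34 in CG, a 6.38-fold higher ratio in LAC (4.06 to 10.4). LMOD1 had 9.79 counts per 100 of MYH11 in LAC and 2.19 in CG, 4.46-fold higher (3.07 to 6.55). For PDGFRB the values were 27.5 in LAC and 8.18 in CG, and for TAGLN 79.1 in LAC and 32.7 in CG, 3.36-fold (2.73 to 4.14) and 2.42-fold higher (2.13 to 2.75). ACTA2 had 2.60 in LAC and 0.401 in CG, 6.48-fold higher with a wide interval (2.73 to 15.3). The 5 genes thus all stood higher relative to MYH11 in LAC. This direction follows from the levels above, where MYH11 was lower in LAC and each of the 5 was higher, and adds no separate evidence. TTN had 15.1 counts for each count of CKM in LAC and 1.26 in CG, 12-fold higher (7.60 to 19.2). This pair, too, had gone in opposite directions.

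**Figure D3:**
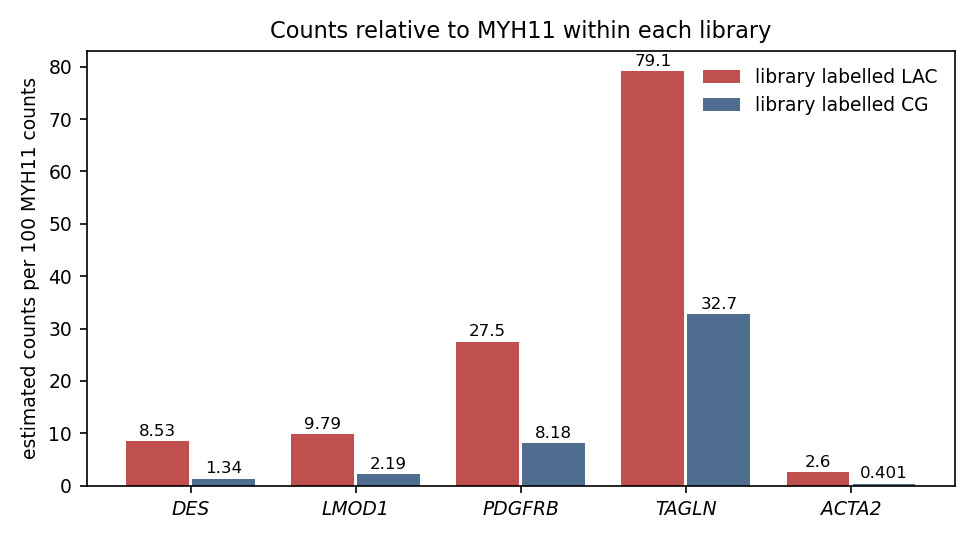
Estimated counts of DES, LMOD1, PDGFRB, TAGLN and ACTA2 per 100 counts of MYH11 in the library labelled LAC and the library labelled CG (bars, 1 library each, not divided by transcript length). Every LAC bar is higher than its CG bar, from 2.42-fold for TAGLN to 6.48-fold for ACTA2. MYH11 itself was lower in LAC, where these genes were higher.

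Summed over the 8 genes, CPM came to 96.7 in LAC and 75.4 in CG, or 0.00958% of the counts in LAC and 0.00761% in CG. MYH11 and TAGLN supplied 37.5% and 29.6% of this sum in LAC, and 62.7% and 20.5% in CG, with counts not divided by length. Most of the sum in each library thus came from these genes, but MYH11 was lower and TAGLN higher in LAC. The difference of the sum between the libraries came mostly from the other genes. ACTA2, LMOD1, DES and PDGFRB together had 17.5 CPM in LAC and 5.72 CPM in CG, a ratio of 3.07. Levels of different genes were not ranked, since the files give no transcript lengths for these rows and the gene FPKM values are on an uncertain scale between genes.

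The wider contractile apparatus of smooth muscle and non-muscle cells was nearly level. Of 44 listed genes 36 had enough counts, with 0 past the rule upwards, 2 downwards and a median of 0.11. The background for this list and those below is 1.89% of coding genes upwards and 11.0% downwards, with a median of -0.14. The summed level of this list was 9413 CPM in LAC and 9410 CPM in CG. Its largest parts were CNN3, ACTB and TPM1, at 1976, 1578 and 1406 CPM in LAC, so the sum says little about genes of low level. The 2 lower genes were TMOD1 and TMOD3, tropomodulins that cap actin filaments and are relatives of leiomodin: TMOD1 had 3.33 CPM in LAC and 10.9 CPM in CG, and TMOD3 had 42.03 CPM in LAC and 94.9 CPM in CG. CNN3, the non-muscle calponin, had 1976 CPM in LAC and 2387 CPM in CG. Some further genes were picked for their role, after their values were seen. TPM2, a muscle tropomyosin, had 10.3 CPM in LAC and 5.19 CPM in CG, and MYL9, a regulatory myosin light chain, had 7.55 CPM in LAC and 4.21 CPM in CG. MYLK, the kinase that starts contraction, had 8.06 CPM in LAC and 7.40 CPM in CG. CALD1 and CACNA1C, of the same list, were slightly lower in LAC, with differences of -0.13 and -0.25.

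Regulators of the smooth muscle programme had 0 of 22 genes past the rule upwards and 3 downwards, with a median of -0.17. Over coding genes the shares were 1.89% and 11.0%, with a median of -0.14, so this list lay near the background. The lower ones were KLF4, a repressor of smooth muscle genes in cultured vascular cells, CSRP2, a LIM protein, and HEY2, a Notch target. KLF4 had 7.58 CPM in LAC and 35.6 CPM in CG, 4.70-fold lower (4.10 to 5.37), and CSRP2 had 79.7 CPM in LAC and 189.5 CPM in CG. HEY2 had 10.5 CPM in LAC and 26.0 CPM in CG. ELK4, an SRF partner, had 130.6 CPM in LAC and 237.3 CPM in CG, and GATA6, a zinc finger factor, had 449.9 CPM in LAC and 344.3 CPM in CG. SRF and MYOCD, the serum response factor and myocardin genes, were looked up for their role. SRF had 18.9 CPM in LAC and 21.1 CPM in CG, and MYOCD had 1.75 CPM in LAC and 2.97 CPM in CG. Neither passed the rule.

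No other pericyte marker with enough counts was past the rule upwards. Of 16 listed, 12 had enough counts, with 0 past the rule upwards, 1 downwards and a median of -0.22. Over coding genes the shares were 1.89% upwards and 11.0% downwards. The summed level of the pericyte list was 43.5 CPM in LAC and 55.98 CPM in CG. The lower gene was ENPEP, an aminopeptidase of the renin-angiotensin system, with 4.05 CPM in LAC and 16.4 CPM in CG, 4.04-fold lower (3.35 to 4.88). RGS5, a regulator of G-protein signalling that marks pericytes, had 9.73 CPM in LAC and 11.8 CPM in CG. EBF1, a transcription factor, had 16.8 CPM in LAC and 10.2 CPM in CG. KCNJ8, a pericyte potassium channel subunit, had 0.65 CPM in LAC and 1.73 CPM in CG, and its partner ABCC9 had 0 counts in LAC and 35 in CG. VTN was at 0 in both libraries.

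The 16 genes of the PDGF system with enough counts had a median of 0.18. Of these, 1 was past the rule upwards and 0 downwards, beside 1.89% and 11.0% of coding genes. The higher gene was PLAT, the tissue plasminogen activator, a protease that can activate PDGF-C, with 2.52 CPM in LAC and 0.64 CPM in CG. The ligand PDGFD had 681 CPM in LAC and 602 CPM in CG, and LRP1, a co-receptor, had 507 CPM in LAC and 298 CPM in CG. PIK3R1, a PI3-kinase subunit that binds the activated receptor, had 74.0 CPM in LAC and 130.5 CPM in CG. PDGFB, the main ligand of the beta receptor, had 1.96 CPM in LAC and 2.11 CPM in CG, and PDGFRA, the alpha receptor, had 15.5 CPM in LAC and 12.8 CPM in CG. These last values were chosen for their role.

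Intermediate filament genes had 2 of 18 past the rule upwards and 0 downwards, with a median of -0.08. Over coding genes the shares were 1.89% upwards and 11.0% downwards. SYNM encodes synemin, which assembles with desmin, and had 2.77 CPM in LAC and 0.69 CPM in CG, 3.99-fold higher (2.54 to 6.20). KRT18, a keratin of simple epithelia, had 2.59 CPM in LAC and 0.71 CPM in CG. VIM, the vimentin gene, had 661.5 CPM in LAC and 638.3 CPM in CG, and the lamin gene LMNB1 had 131.8 CPM in LAC and 162.6 CPM in CG. Of the focal adhesion and dystrophin complex genes 2 of 21 were past the rule upwards, 1 downwards, and the median was 0.07. SNTB1, a syntrophin, had 190.5 CPM in LAC and 80.6 CPM in CG, and ITGA1, a collagen receptor subunit, had 247 CPM in LAC and 123 CPM in CG. ITGA1 was just past the rule, at 1.01, and under median-of-ratios scaling or library totals 1 gene of this list was past it upwards. DAG1 and ITGB1, the dystroglycan and integrin beta 1 genes, differed by -0.10 and 0.04.

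The sarcomere genes moved in both directions, with a median near 0. Of 49 sarcomere genes 41 were in the files and 27 had enough counts, with a median of 0.04. Of these, 0 were past the rule upwards and 3 downwards, beside 1.89% and 11.0% of coding genes. The summed level was 130.0 CPM in LAC and 128.1 CPM in CG, and 9 genes, among them ACTA1, ACTC1, TNNI1, TNNT1 and TNNT2, were at 0 in both. The lower ones were CASQ2, the cardiac calsequestrin, with 0 counts in LAC and 118 in CG (13.3-fold lower at the bound of its counting interval), MYOM2, an M-band protein, with 0.43 CPM in LAC and 2.40 CPM in CG, and RYR1, the skeletal calcium release channel, with 0.97 CPM in LAC and 3.45 CPM in CG. Some low genes leaned the way of titin without passing: MYOT, the Z-disc protein myotilin, had 1.91 CPM in LAC and 0.47 CPM in CG, a ratio of 4.10 (2.47 to 7.54) and a difference of 0.99. ANKRD1, a titin-binding ankyrin repeat protein, had 62 counts in LAC and 8 in CG. Other low genes of the list leaned the opposite way without passing. Among these, MYL4 had 49 counts in LAC and 146 in CG, and ACTN2 had 35 in LAC and 83 in CG. With a pseudocount of 0.1, 7 sarcomere genes passed upwards and 8 downwards, beside 6.28% and 18.3% of coding genes. MYH6, the cardiac alpha-myosin, had 15.7 CPM in LAC and 20.1 CPM in CG. FBXO32, a ubiquitin ligase of muscle atrophy, had 76.4 CPM in LAC and 66.8 CPM in CG. Of 5 myogenic regulators with enough counts 0 passed the rule, their median was -0.13, and MYOD1, MYOG, PAX3 and PAX7 were at 0 in both. Among them SIX4 had 28.3 CPM in LAC and 31.1 CPM in CG, MYF6 had 3.27 CPM in LAC and 6.08 CPM in CG, and MSTN, the myostatin gene, had 2.00 CPM in LAC and 0.54 CPM in CG.

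The brain-type creatine kinase was lower along with CKM. CKB had 11.8 CPM in LAC and 55.6 CPM in CG, 4.72-fold lower (4.24 to 5.27). It was the 1 gene past the rule among 7 of creatine metabolism, whose median was -0.15. Over coding genes 11.0% were past the rule downwards. AK1, an adenylate kinase, had 30.1 CPM in LAC and 33.6 CPM in CG, and GATM, which makes the creatine precursor, had 12.3 CPM in LAC and 15.8 CPM in CG.

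Markers of other cells differed between the same libraries. The counts of each marker list stand beside 1.89% of coding genes past the rule upwards and 11.0% downwards. All 20 oocyte markers with enough counts were past the rule downwards, with a median of -2.04, and their sum was 1018 CPM in LAC and 5124 CPM in CG. BMP15, an oocyte growth factor, WEE2, KPNA7 and MAEL differed by -2.36, -2.50, -2.77 and -2.88. The stromal fibroblast markers had 5 of 13 past the rule upwards and 1 downwards, a median of 0.26, and a sum of 161.5 CPM in LAC and 65.3 CPM in CG, with DPT and PI16 at 0 in both. The higher ones were DCN and POSTN, at 2.55 and 2.46, and the collagen genes COL1A1, COL1A2 and COL3A1, and the lower one was MFAP4. Endothelial markers had 0 of 11 upwards and 2 downwards, a median of 0.07, and a sum of 10.5 CPM in LAC and 57.0 CPM in CG. Most of the sum in CG was TEK, the angiopoietin receptor, with 4.23 CPM in LAC and 46.7 CPM in CG. FLT1, a VEGF receptor, had 1.06 CPM in LAC and 6.52 CPM in CG. The cadherin gene CDH5 had 48 counts in LAC and 0 in CG, PECAM1 had 90 in LAC and 76 in CG, and VWF had 92 in LAC and 72 in CG, while ROBO4 and SOX17 were at 0 in both.

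Theca markers, a list that also holds ACTA2, had 0 of 9 past the rule upwards and 1 downwards, and a median of 0.08. Their sum was 188.2 CPM in LAC and 206.4 CPM in CG, with STAR at -0.48 and HHIP at -0.31, and with LHCGR at 0.56, CYP17A1 at 0.63 and CYP11A1 at 0.25. Granulosa and cumulus markers had 1 of 13 past the rule upwards, VNN1, a pantetheinase with 304 counts in LAC and 0 in CG (47.5-fold higher at the bound of its counting interval), and 0 downwards. Their median was 0.05 and their sum 15690 CPM in LAC and 15790 CPM in CG, with GJA1 at -0.04, INHBB at -0.11 and IHH at -0.90. Surface epithelial markers had 1 of 5 upwards, KRT18, and 2 downwards, CDH1 at -2.24 and EPCAM at -1.65, a median of -0.68, and a sum of 21.8 CPM in LAC and 83.5 CPM in CG, and CLDN3, CLDN4, KRT7, KRT19, MUC1 and PAX8 at 0 in both. Macrophage markers had 2 of 10 upwards and 1 downwards, with MRC1 at 2.38 and CD163 among the higher and MSR1 at -2.39, and a median of 0.55. Their sum was 28.4 CPM in LAC and 53.5 CPM in CG, of which MSR1 was 8.20 CPM in LAC and 47.3 CPM in CG, and the other 9 markers had higher levels in LAC. In bulk RNA fewer cells of a type and less RNA per cell cannot be told apart. The part of these markers in the contractile gene differences was not tested.

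**Figure D4:**
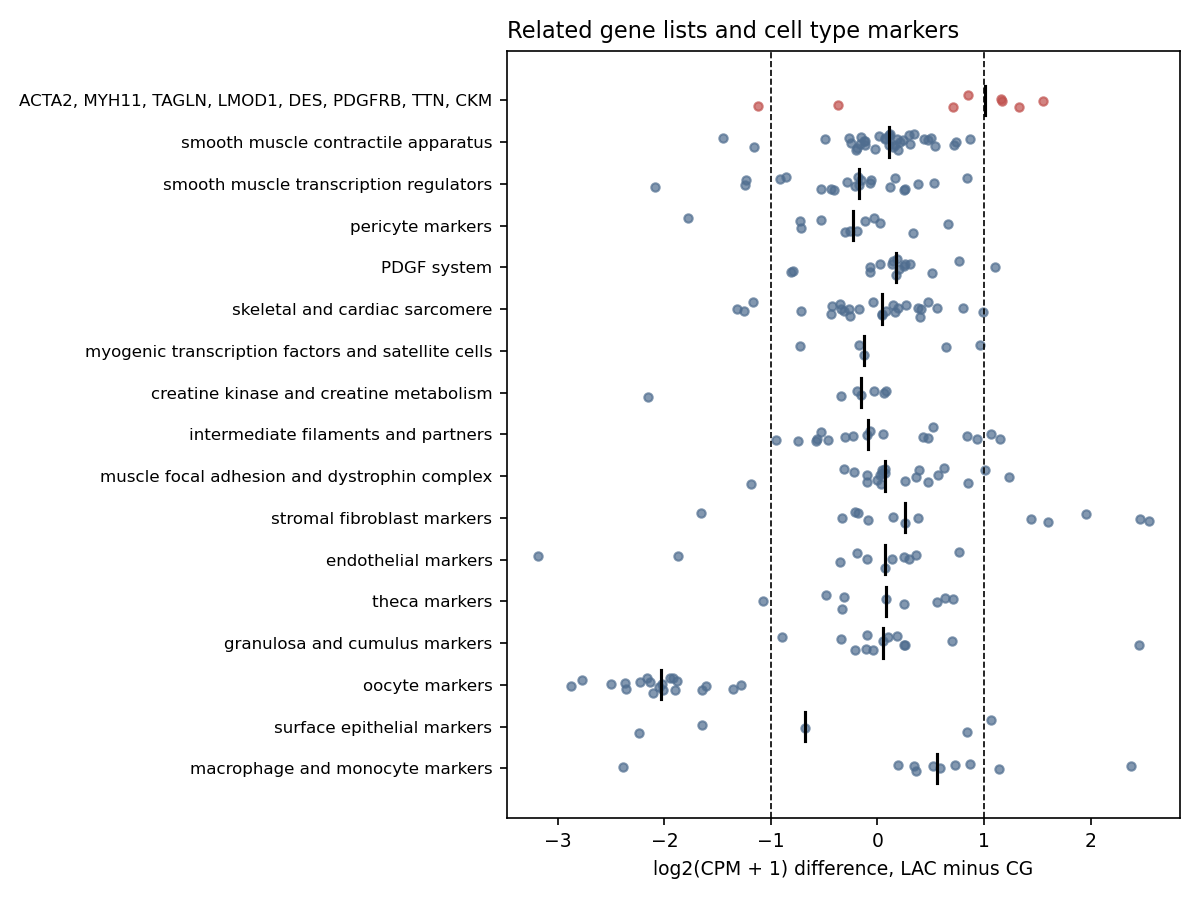
Difference of log2(CPM + 1), LAC minus CG, of each gene with at least 10 counts in the higher library (points, spread vertically at random) in the contractile marker genes and in 16 related lists, with the median of each as a black bar and the size rule as dashed lines. The 8 contractile markers have their median at 1.01, the wider contractile list at 0.11, and all oocyte markers lie under -1.

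Genes next to the markers on the chromosome were also compared. Within 20 kb of the 8 genes lay 18 rows, a window chosen after the values were seen, and of the 16 with enough counts 0 were past the rule upwards and 3 downwards, beside 4.23% and 8.51% of all rows of the gene table. STAMBPL1, a deubiquitinase gene 13244 bp from ACTA2 on the opposite strand, had 6.995 CPM in LAC and 26.1 CPM in CG, 3.73-fold lower. An unannotated locus 6735 bp from PDGFRB, MSTRG.3547, had 0 counts in LAC and 183 in CG. NDE1, a dynein partner that lies 4005 bp from the end of MYH11 on the opposite strand, had 22.97 CPM in LAC and 30.3 CPM in CG, a difference of -0.39 beside the -0.37 of MYH11. PCSK7 and SIDT2, which flank TAGLN at 291 and 1809 bp, differed by 0.28 and 0.22, and SPEG, a muscle kinase gene 10334 bp from DES, by -0.56.

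Long non-coding transcripts gave the only values of all 3 libraries near these genes. Of 8 transcripts within 100 kb, 4 reached 1 FPKM in any library. The intergenic transcript MSTRG.17459.1, 292 bases long with 1 exon and 6017 bp from ACTA2, was at 4.08 FPKM in the CG library, 0.38 in LAC and 2.23 in HAC. It was lowest in LAC, from about 4 reads, where ACTA2 itself had more counts in LAC than in CG. MSTRG.7076.1, an intergenic transcript 21.9 kb from TTN, was at 0.54 FPKM in the CG library, 1.75 in LAC and 0.16 in HAC, from 20, 58 and 6 reads, so that HAC was lower than LAC by 1.25 on the log2(FPKM + 1) scale.

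Near MYH11, a junction-sharing transcript of its neighbour FOPNL, MSTRG.5926.5, was at 2.86 FPKM in the CG library, 2.19 in LAC and 6.71 in HAC. The intergenic MSTRG.5931.1, 45.3 kb away, had 1.02, 0.71 and 1.69 FPKM in CG, LAC and HAC. Both were highest in HAC and lowest in LAC. These are FPKM as deposited. With median-of-ratios scaling the difference of MSTRG.5926.5 went from -0.28 to -0.59 for LAC minus CG. For HAC minus LAC it went from 1.27 to 1.55. Both shifts exceed the counting intervals, so the sizes depend on the scaling, while the directions stayed. For MSTRG.5931.1 the interval of the difference between LAC and CG, -0.63 to 0.18, covers 0. The other 4 transcripts, near LMOD1, PDGFRB and MYH11, were listed at 0 in all 3 libraries.

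The genes with the most similar pair of levels were taken for each marker by the distance between log2(CPM + 1) values over the 2 libraries. For DES these were SEMA3A, a semaphorin, with 3.42 CPM in LAC and 0.69 CPM in CG, and SYNM, described above. LMOD1 was nearest to EGR3 and HBQ1, PDGFRB to LRRC19 and ADAM19, and TTN to MET and COL1A1, the collagen I gene with 12.9 CPM in LAC and 4.11 CPM in CG. TAGLN was near to VCAM1, ACTA2 nearest to CORO2A and TLCD2, CKM to SLC13A4 and MB21D1, and MYH11 to PLEKHA7 and TES. With 2 libraries such a likeness is weak: within a distance of 0.25 there were 279 genes for MYH11, 70 for ACTA2, 52 for CKM and 8 for TTN.

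For ACTA2, LMOD1, DES, PDGFRB, TTN and CKM the difference moved more with the pseudocount than with the scaling. TAGLN and MYH11 moved more with the scaling, TAGLN between 0.82 and 1.02 over scalings and between 0.72 and 0.89 over pseudocounts. Over 4 scalings, TTN lay between 1.52 and 1.70, DES between 1.31 and 1.43, PDGFRB between 1.14 and 1.32, LMOD1 between 1.14 and 1.27, and CKM between -1.14 and -1.01. With a pseudocount of 5 in place of 1, TTN was the 1 gene past the rule. On the deposited gene FPKM, DES at 1.65 and PDGFRB at 1.04 were past it, whereas LMOD1 at 0.83, CKM at -0.29 and TTN at 0.11 were not. These values lie near or under the pseudocount of 1. TTN had 0.11 FPKM in LAC and 0.03 in CG, CKM had 0.09 FPKM in LAC and 0.33 in CG, and LMOD1 had 1.66 FPKM in LAC and 0.50 in CG, the same directions as in CPM. Each of the 8 genes kept its sign under every scaling, pseudocount and unit tried, MYH11 staying between -0.42 and -0.20.

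**Figure D5:**
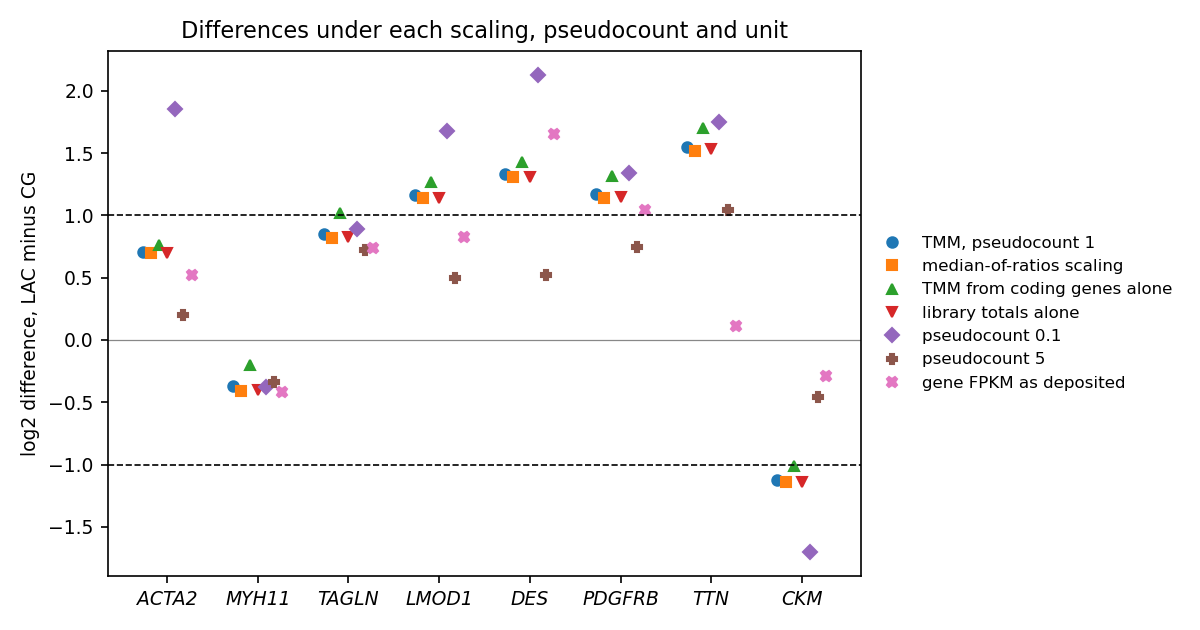
Log2 difference, LAC minus CG, of each gene under 4 scalings, 2 further pseudocounts and the deposited gene FPKM (symbols), with dashed lines at the size rule. All symbols of a gene lie on the same side of 0, and those with a pseudocount of 0.1 and of 5 lie farthest apart for ACTA2, LMOD1, DES and CKM.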

How the data were processed

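RNA of cumulus-oocyte complexes was measured in 3 libraries, 1 per group. Per the submitters' processing notes fastp, HISAT2 and the build OryCun2.0 were used. The assembly and counting steps are not given in the sources used here. The authors deposited estimated counts and FPKM per gene, and per long non-coding transcript a coverage signal and FPKM. At loci with 1 long non-coding transcript, 100% of deposited counts equalled coverage times length divided by 75, for reads of 150 bases, so 1 count stands for about 0.5 reads. At only 5.87% (LAC) and 6.17% (CG) of these loci did the gene FPKM lie within 10% of its transcript's value. The gene columns in the HAC file, 2 of 12, were not used.

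Counts were scaled with trimmed mean of M values factors (30% of ratios and 5% of levels trimmed), computed from their formula and tested on simulated data. Fold intervals are exact binomial, level intervals exact Poisson, and ratios within libraries conditional odds ratio intervals, all on halved counts. PCR reads are not independent molecules, so these cover counting error only. A symbol with no row of its name was looked up by RefSeq accession in the table of assembly mOryCun1.1. Named genes are all markers, up to 2 genes per list by level and up to 2 by difference, and the 2 nearest per marker. In list counts of 5 or fewer, genes outside the rule are named from the values. Other genes outside it were chosen for their role or position after their values were seen. A few genes that the rule names are not reported here. Members and lists were chosen with earlier results of these data known. Python 3.11.15, pandas 2.3.3, numpy 2.4.6, SciPy 1.17.1 and matplotlib 3.10.9 were used. Alternatives were other scalings, pseudocounts, filters, a stricter size rule, FPKM and a shorter distance.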

Additional observations from a re-analysis of the deposited data

How the results depend on the processing

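With 1 library per group no library could be left out, and the levels of ACTA2, DES, LMOD1 and CKM rest on 15 to 245 counts. Median-of-ratios scaling, TMM factors from coding genes alone, library totals and no count minimum left between 4 and 5 markers past the rule upwards and 1 downwards. TMM factors from coding genes alone shifted every log2 ratio by 0.18, with 22.8% of coding calls higher against 14.6%. Coding genes with enough counts held a smaller share of the counts in LAC than in CG. With a pseudocount of 0.1 the markers' median was 1.51, and 943 coding genes were higher and 2740 lower, against 283 and 1653. With a pseudocount of 5 the median was 0.51, 1 marker was higher and 0 lower, and 112 coding genes were higher and 909 lower. With at least 5 CPM in the higher library 4 markers were tested, 2 were higher (PDGFRB and TTN) and 0 lower. At a size rule of 2 there were 0 markers in either direction, and 41 coding genes higher and 323 lower. With gene FPKM 2 markers were higher (DES and PDGFRB) and 0 lower, the median was 0.63, and 179 coding genes were higher. A CPM ratio of at least 2 without a pseudocount, chosen after seeing the data, gave 1094 coding genes higher and 2938 lower. Within 10 kb in place of 100 kb, 2 non-coding transcripts remained above 1 FPKM in place of 4. Of the counts per related list, 219 stayed within 1.5 times under these settings and 69 did not, and 35 of the list medians moved against 93 that did not. The cause of these shifts beyond the settings themselves was not tested.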

Other observations

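Several muscle genes had counts in 1 library alone, at levels too low to pass the size rule. MYF5, a regulator of muscle progenitors, had 38 counts in LAC and 0 in CG (5.44-fold higher at the bound of its counting interval). TCAP, the titin cap, had 32 counts in LAC and 0 in CG (4.50-fold), and ITGA7, the muscle laminin receptor subunit, had 26 in LAC and 0 in CG (3.55-fold). LDB3, a Z-disc protein, had 0 counts in LAC and 22 in CG (2.15-fold lower at that bound). These genes were picked after their values were seen, and 1 library per group gives no measure of how often such gaps occur between libraries of 1 group.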
